A study of Mus musculus with 6 samples.

Results

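The SOCS and SPSB genes examined here encode proteins that end in a SOCS box: Cish, Socs1, Socs2, Socs3, Socs5 and Socs6 of the SOCS family, and Spsb1, Spsb2, Spsb3 and Spsb4 of the SPRY-domain family. The set was chosen by gene family with earlier values of the same dexamethasone-against-vehicle contrast in view, so the members' own differences are given as a description and no test of them is reported. All 10 genes were on the array, with 15 of its 38467 probes, against 19640 genes that carried a single symbol. Each member had a value on all 6 arrays. C3H10T1/2, a mouse mesenchymal cell line able to form fat, muscle, bone and cartilage cells, was grown in serum-containing medium and given DMSO (vehicle, 3 cultures) or 1 µM dexamethasone (3 cultures) for 90 minutes. Dexamethasone is a man-made steroid hormone that acts through the glucocorticoid receptor. The samples are cultures of a single line, so the spread between them is that of cultures and arrays. The comparison asks which transcripts differ early after the hormone is added.

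The SOCS box binds elongin B and elongin C and, through them, the scaffold cullin 5, which makes each protein the substrate-binding arm of a ubiquitin ligase. SOCS proteins carry an SH2 domain that docks on phosphorylated cytokine receptors or JAK kinases. Many of their genes are switched on by STAT factors and so form a negative feedback loop on cytokine signals. SPSB proteins carry a SPRY domain instead, and SPSB1, SPSB2 and SPSB4 are known to bring the inducible nitric oxide synthase (Nos2) to degradation. Glucocorticoids act in mesenchymal cells partly by limiting cytokine responses.

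The values were read as log2 ratios of the sample, labelled with Cy3, to a common pool of C3H10T1/2 RNA, labelled with Cy5. On 4 arrays a few values, none of them a member's, were too large for such a ratio. A ratio to a pool of the same cells says nothing of how abundant a transcript is, so levels of different members are not compared and markers of the cell line cannot be checked. Neither the labels nor the values settle which way the ratio was taken. Sample over pool is likely, because 5 of 6 textbook receptor targets (Dusp1, Fkbp5, Per1, Tsc22d3 and Sgk1, but not Zbtb16) were higher with dexamethasone when read that way. Zbtb16 differed by -0.40 ± 1.01 (SE), did not have a value on every array and had no probe free of low signal. Vehicle 2 and dexamethasone 3 had the lowest rank correlation of any pair of arrays over all probes (Spearman -0.33, Pearson -0.043). A correlation between arrays is the same whichever way all the ratios were taken, so it says nothing of the direction. If the ratio ran the other way, "higher" and "lower" would trade places throughout. The arrays also differed in quality. Values that equal a ratio of whole numbers up to 10, as very dim spots give, made up 1.86% to 3.79% of values on vehicle 1, vehicle 2 and dexamethasone 1, and 7.73% to 12.7% on vehicle 3, dexamethasone 2 and dexamethasone 3. Missing values ran from 552 to 932 on the vehicle arrays and from 1695 to 4290 on the dexamethasone arrays. The dexamethasone minus vehicle difference had a median of 0.32 over the 27046 genes and unnamed probes fitted, and of 0.018 once the arrays were centred on their medians. A member's difference is therefore also given relative to 0.32 or after centring. Without low-signal probes the median of all genes was 0.17, and values relative to all genes use 0.32.

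Spsb1 stood apart from the other members, with a log2 ratio far below 0 on every vehicle array and above 0 on every dexamethasone array. Socs2 was higher with dexamethasone at both of its probes, and Socs5, Socs6 and Spsb2 were lower. For these 5 genes the 3 dexamethasone values lay wholly on one side of the 3 vehicle values: 2 genes higher and 3 lower (3 higher and 2 lower with the sign turned). Over the 22880 genes and unnamed probes with values on all arrays, 9.95% were higher without overlap and 7.29% lower. Nothing is read from the members' counts against these shares, since the members were chosen with this contrast known. The groups overlapped for Cish, Socs1, Socs3, Spsb3 and Spsb4. The moderated test (limma, Benjamini-Hochberg adjusted over all genes) called 0% of all genes, against 1468 at an unadjusted p under 0.05. After low-signal probes were left out it called 0.169% of 17152, 29 in all. These figures are given as background and not as a test of the members. The members' median difference was 0.28, beside 0.32 for all genes. All 10 members kept a probe when low-signal probes were left out, and there it was 0.28, beside 0.17 for all genes. With all probes, the median was 0.18 for the 6 SOCS genes and 1.13 for the 4 SPSB genes, and -0.13 and 0.83 after centring. The SPSB median falls between Spsb3 (0.26) and Spsb4 (2.01), whose groups overlapped as deposited, so it does not describe the SPSB genes as a group.

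**Figure D1:**
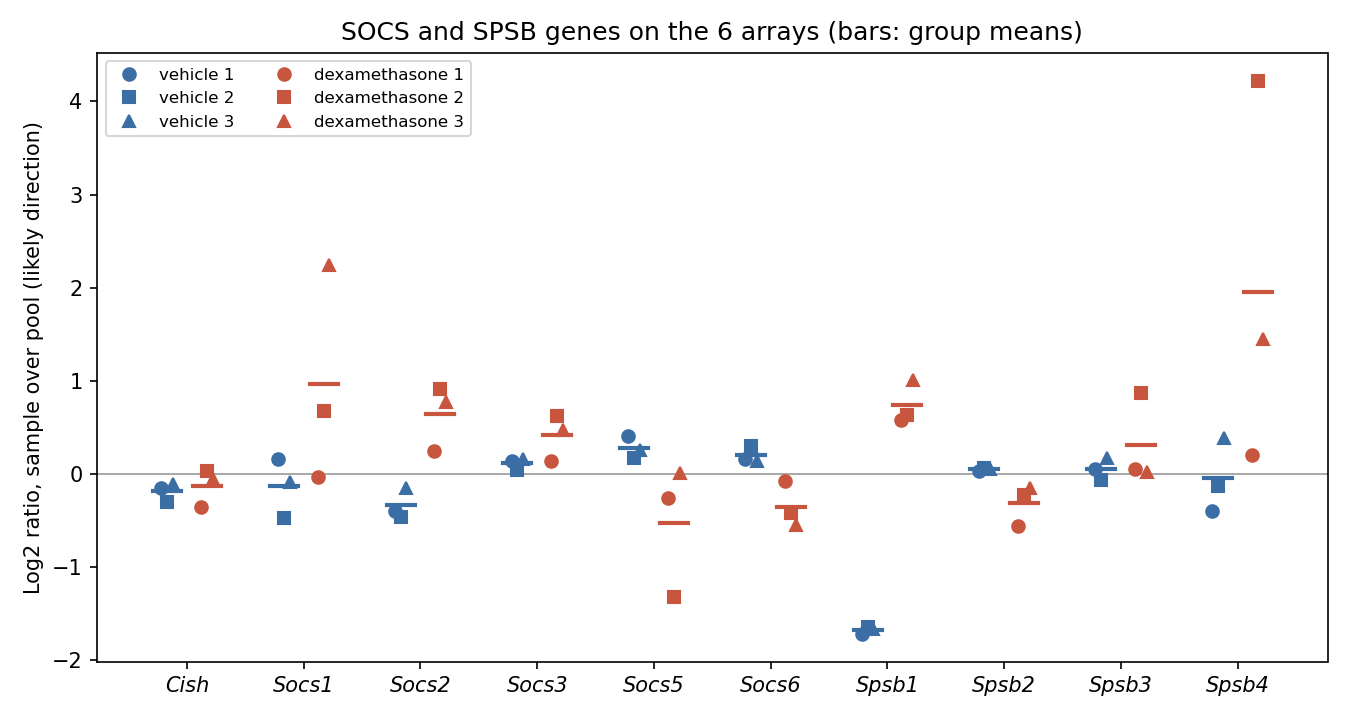
Log2 ratio to the pool (vertical axis) of the 10 SOCS and SPSB genes on each of the 6 arrays, with the probes of a gene averaged. Blue marks are vehicle and red marks dexamethasone, the shape gives the replicate and the bars are group means; Spsb1 moves from a mean of -1.67 to 0.74, while the spread within dexamethasone is widest for Spsb4 and Socs1.

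Spsb1, which besides nitric oxide synthase is known to bind a TGF-beta receptor and limit its signal, read -1.72, -1.64 and -1.665 on vehicle arrays 1, 2 and 3. On dexamethasone arrays 1, 2 and 3 it read 0.58, 0.63 and 1.005. The groups were separated by a gap of 2.22, several times wider than the range within either group. The means were -1.67 ± 0.04 (SD, n = 3) and 0.74 ± 0.23 (SD, n = 3), a difference of 2.41 ± 0.20 (limma moderated SE) and a 5.33-fold higher level with dexamethasone. Relative to the median of all genes the difference was 2.09, and after centring it was 2.105, or 4.30-fold. Of all genes and unnamed probes, 4.55% had a larger difference, and 2.24% did after low-signal probes were left out. With the ratio taken the other way, these shares would be 95.4% and 97.7%. Spsb1 rests on a single probe, none of whose values matched a small whole-number ratio.

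The 300 bases around the annotated start of Spsb1 are shown because this gene had the widest gap between groups, and windows of Cish and Socs3 because they hold the STAT motif of classical cytokine feedback genes. The sequences are RefSeq's on the mouse build GRCm38.p6, read 5′ to 3′ on the gene's strand. Capitals mark GC boxes (GGGCGG on either strand) in Spsb1 and the STAT motif TTCNNNGAA, which reads the same on both strands, in Cish and Socs3. The Spsb1 window (chr4:149954957-149955256, minus strand) runs from 250 bases before to 50 bases into the gene, and the others are 100-base stretches of windows cut the same way (Cish chr9:107296609-107296708, plus strand, Socs3 chr11:117969467-117969566, minus strand).
Spsb1: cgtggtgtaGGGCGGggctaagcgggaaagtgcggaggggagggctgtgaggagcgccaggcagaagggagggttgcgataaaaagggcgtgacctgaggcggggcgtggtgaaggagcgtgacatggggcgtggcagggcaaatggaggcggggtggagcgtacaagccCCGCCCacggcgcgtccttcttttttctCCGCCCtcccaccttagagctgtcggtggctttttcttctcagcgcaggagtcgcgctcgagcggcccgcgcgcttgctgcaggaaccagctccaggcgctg
Cish: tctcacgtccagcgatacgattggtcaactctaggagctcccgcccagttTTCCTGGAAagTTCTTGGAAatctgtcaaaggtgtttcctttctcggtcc
Socs3: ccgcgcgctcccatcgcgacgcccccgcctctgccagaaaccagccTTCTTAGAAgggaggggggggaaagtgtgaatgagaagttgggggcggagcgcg

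RefSeq windows matched by symbol were searched for 7 of the 10 members, 11 windows in all, since Spsb2 and Spsb3 have several starts. Socs6 lies on a chromosome left out of this search of the members, and no window was listed for Socs2 or Socs5. The Spsb1 window held 3 GC boxes and no STAT motif. Each of the 7 genes had at least 1 window with a GC box. Counted by window, 9 of the 11 held one, and 35.7% of the 32851 windows of all genes do. The windows of Spsb2 overlap, as do some of Spsb3, so the same boxes are counted more than once. The STAT motif was found in 2 of the 11 windows, with 2 copies at Cish and 1 at Socs3, and 8.30% of all windows hold it. The palindrome of the glucocorticoid receptor, searched as GNACANNNTGTNC, was in none of the 11 windows and in 0.475% of all windows. A single arm of it, AGAACA on either strand, was in 1 window, at Spsb3, and in 19.0% of all windows. These matches describe the letters of short windows and say nothing of where a factor binds. The window of Spsb1 was 66.3% G and C, and the median over all windows was 52.7%.

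Spsb2, a relative of Spsb1 that also binds nitric oxide synthase, differed the other way. In vehicle it read 0.035, 0.063 and 0.057, and in dexamethasone -0.56, -0.23 and -0.15, in replicate order. All 3 dexamethasone values lay below the vehicle values, with a gap of 0.19. Its difference was -0.36 ± 0.19 (SE), which is -0.68 relative to all genes and -0.67 after centring. Without dexamethasone replicate 1 it was -0.24. Within each array, the log2 ratio of Spsb1 minus that of Spsb2 is not affected by centring the arrays. That contrast was chosen after the values were seen. In vehicle it was -1.73 ± 0.03 (SD, n = 3). In dexamethasone it was 1.05 ± 0.17 (SD, n = 3), a shift of 2.78 on the log2 scale.

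Spsb4, the closest relative of Spsb1, gave widely scattered values. It read -0.40, -0.13 and 0.38 in vehicle and 0.21, 4.22 and 1.45 in dexamethasone. Dexamethasone 1 lay within the vehicle range, and the high mean came from dexamethasone 2 and 3. The difference was 2.01 ± 1.08 (SE) as deposited and fell to 0.87 without dexamethasone replicate 2. After centring the groups no longer overlapped (difference 1.70). Spsb3, whose product has been linked to turnover of the DNA sensor cGAS, read 0.05, -0.06 and 0.17 in vehicle and 0.05, 0.87 and 0.02 in dexamethasone. Apart from dexamethasone 2 its values lay within the vehicle range. Its difference of 0.26 ± 0.30 (SE) was close to the median of all genes and was -0.047 after centring.

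Socs2, the feedback inhibitor of growth hormone signalling, was represented by 2 probes. At the probe annotated to the RefSeq transcript (mMR030652) it read -0.38, -0.435 and -0.24 in vehicle and 0.54, 0.49 and 0.55 in dexamethasone. The 3 dexamethasone arrays lay within 0.06 of each other, and all were above every vehicle array. The other probe (mMC022511) read -0.42, -0.48 and -0.06 in vehicle and -0.06, 1.34 and 1.00 in dexamethasone. There vehicle 3 and dexamethasone 1 nearly touched (-0.064 against -0.060), and the value of 1.00 is one that a dim spot gives. The differences of the probes were 0.88 and 1.08. Averaged, Socs2 was 1.97-fold higher (difference 0.98 ± 0.25, SE), 0.66 relative to all genes and 0.67 after centring, where the groups still did not overlap.

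Socs6 and Socs5, the SOCS members with a long N-terminal region, were lower with dexamethasone. Socs6, linked to insulin receptor and receptor tyrosine kinase signalling, had 3 probes, and at each of them all dexamethasone values lay below all vehicle values. Averaged over its probes it read 0.17, 0.30 and 0.14 in vehicle and -0.08, -0.42 and -0.55 in dexamethasone. Its difference was -0.55 ± 0.205 (SE), with -0.87, -0.33 and -0.46 at the single probes. After centring it was -0.86, and dexamethasone 1 then lay inside the vehicle range. Among the single probes, the centred groups overlapped at mMC020815 and mMR026149 but not at mMC004507. The probe mMC020815 was among those left out for low signal, since its dexamethasone 1 value is one that a dim spot gives. The Socs2 minus Socs6 contrast within an array, also chosen after the values were seen, averaged -0.54 ± 0.23 over the vehicle arrays and 0.99 ± 0.58 over the dexamethasone arrays (SD, n = 3 each). The 3 dexamethasone values (0.32, 1.34 and 1.32) all lay above the 3 vehicle values (-0.56, -0.76 and -0.29).

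Socs5, known for restraining EGF receptor and interleukin-4 signals, had 2 probes that disagreed in size. The probe mMC002746 read 0.87, 0.66 and 0.745 in vehicle and -0.42, -1.19 and -0.21 in dexamethasone, a difference of -1.37 with no overlap. At the probe mMA034854 the vehicle values were -0.04, -0.33 and -0.23 and the dexamethasone values -0.095, -1.45 and 0.23, so the groups overlapped and the difference of -0.235 rested on dexamethasone 2. Both probes are annotated to the same transcript. The average difference was -0.80 ± 0.40 (SE) and -1.11 after centring, and it was -0.40 without dexamethasone replicate 2.

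Cish, Socs1 and Socs3 are the members best known as early STAT-driven feedback genes, and all 3 overlapped between groups. Cish, an inhibitor of STAT5 signalling, read -0.145, -0.305 and -0.11 in vehicle and -0.36, 0.035 and -0.05 in dexamethasone. Its difference was 0.06 ± 0.20 (SE) as deposited and -0.25 after centring. Socs3, which blocks JAK kinases bound to the interleukin-6 receptor subunit gp130, read 0.14, 0.04 and 0.16 in vehicle and 0.145, 0.63 and 0.48 in dexamethasone. Dexamethasone 1 fell between the vehicle values. Its difference of 0.30 ± 0.20 (SE) was close to the 0.32 median of all genes, and it was -0.006 after centring.

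Socs1, which inhibits JAK kinases downstream of interferon receptors, had 2 probes with different outcomes. At mMR028602, the one annotated to the RefSeq transcript, the values were 0.025, -0.07 and 0.11 in vehicle and -0.21, 0.23 and -0.005 in dexamethasone, a difference of -0.016. The probe mMC006707 read 0.29, -0.87 and -0.27 in vehicle and 0.14, 1.14 and 4.49 in dexamethasone. Its difference of 2.21 came mostly from dexamethasone 3. The gene average of 1.095 ± 0.64 (SE) therefore describes neither probe, and it was 0.455 without dexamethasone replicate 3.

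**Figure D2:**
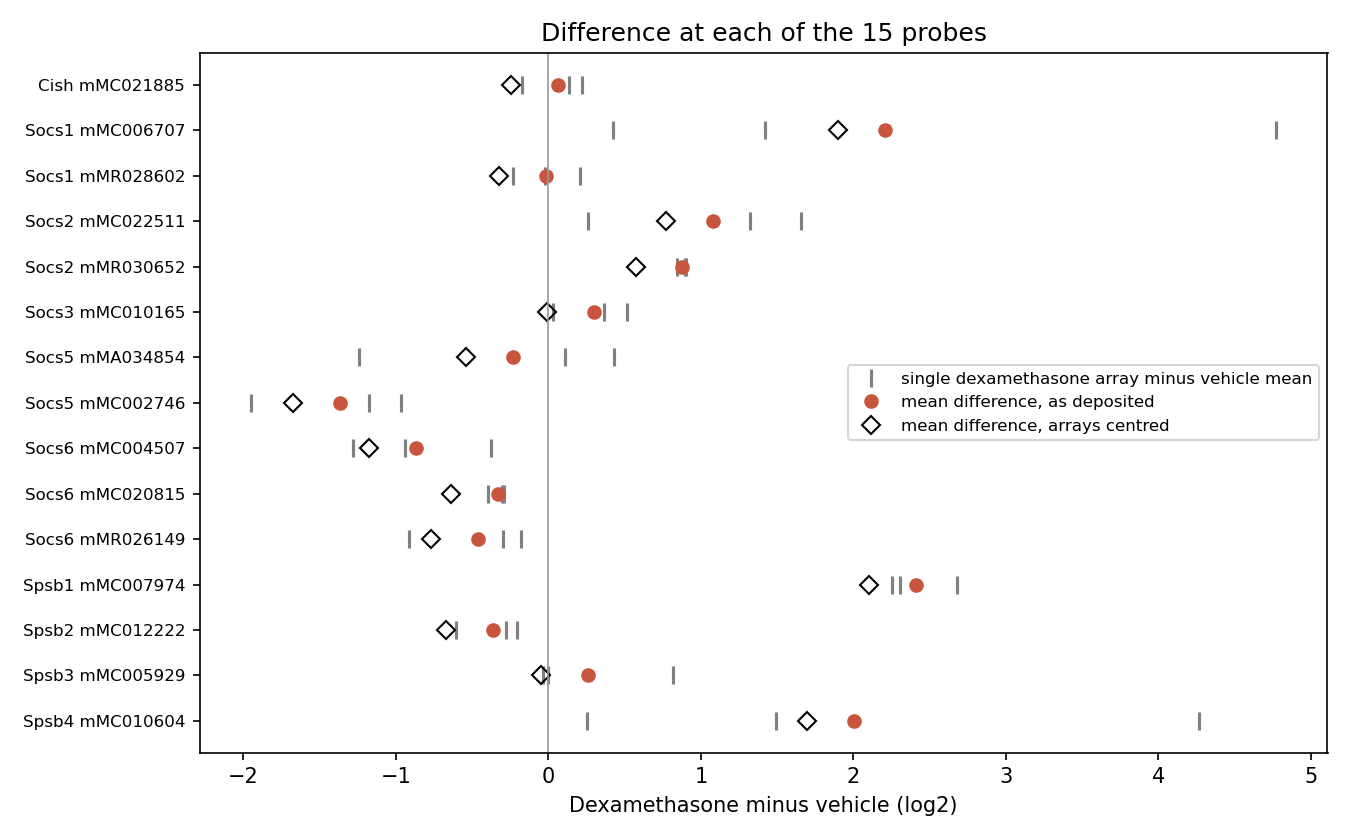
Dexamethasone minus vehicle difference (log2, horizontal axis) at each of the 15 probes of the 10 genes. Grey ticks are single dexamethasone arrays minus the vehicle mean, filled circles their mean as deposited, and open diamonds the mean with arrays centred on their medians; the ticks are tightest at the Socs2 probe mMR030652, and the 2 probes of Socs1 lie at 2.21 and -0.016.

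Counted by probe, 3 of the 15 were higher without overlap, 5 lower and 7 overlapped. Over the 31071 probes with values on all arrays, 10.3% were higher and 8.42% lower. After centring, 3 genes were higher (Spsb1, Socs2 and Spsb4) and 2 lower (Socs5 and Spsb2), while 5.57% of all genes were higher and 3.99% lower. The count of members without overlap was larger with dexamethasone 1 left out, and so were the shares of all genes. Nothing is read from that count, since fewer arrays overlap less often. Without dexamethasone replicate 1, 6 members were higher and 3 lower without overlap, and the shares of all genes were 42.9% and 12.2%.

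Differences were also computed within each set of arrays of like quality. Between dexamethasone 1 and vehicle 1 and 2, the Spsb1 difference was 2.26, and between dexamethasone 2 and 3 and vehicle 3 it was 2.48. Socs2 (0.67 and 1.00), Socs5 (-0.55 and -0.91), Socs6 (-0.31 and -0.63) and Spsb2 (-0.605 and -0.25) also kept their sign in both sets. The difference of Spsb4 was 0.47 in the one and 2.45 in the other, and that of Socs1 was 0.12 and 1.54. Cish changed sign (-0.13 and 0.10). The median of all genes was -0.05 and 0.24. A set holds a single array of one of the groups, so these values have no error, and the part of array quality in the members' differences was not tested.

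**Figure D3:**
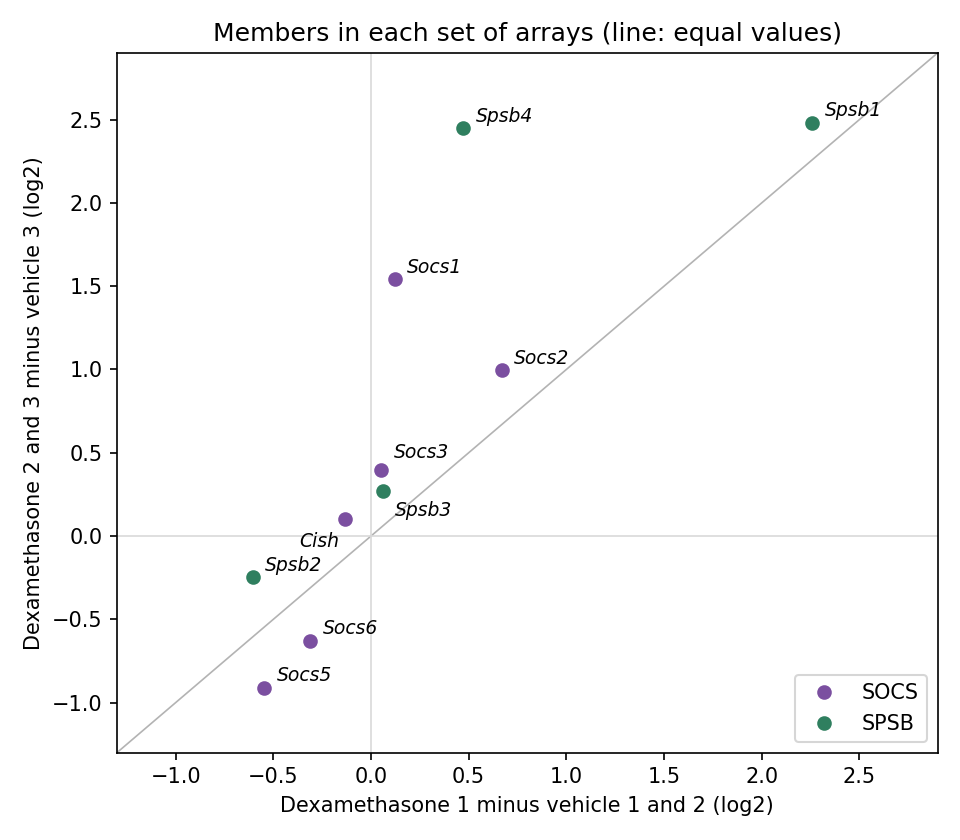
Difference of each member (log2) between dexamethasone 1 and vehicle 1 and 2 (horizontal axis) and between dexamethasone 2 and 3 and vehicle 3 (vertical axis), with a line of equal values. Purple points are SOCS genes and green points SPSB genes; Spsb1 lies near the line at 2.26 and 2.48, and Spsb4 and Socs1 lie far above it.

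The genes around these proteins in the pathway were taken from lists chosen from general knowledge, and limma called 0 of the 113 genes tested. Without adjustment, 11 had a limma p under 0.05 (7 higher and 4 lower with dexamethasone). Of all 27046 genes and unnamed probes fitted, 1468 did (1199 higher and 269 lower). Among 24 other SOCS-box genes the median difference was 0.01, with 14 above 0 and 10 below. Asb10, a member of the ankyrin-repeat branch of the family, had the smallest p (difference 1.28 ± 0.56, SE, limma adjusted p = 0.732), followed by Rab40c (0.33 ± 0.20, adjusted p = 0.732). The only probe of Asb10 was among those left out for low signal. Of 10 subunits and partners of the elongin and cullin ligase, 3 were above 0 and 7 below, with a median of -0.09. The ligase partner Arih2 read -0.43 ± 0.19 (SE) and elongin C (Eloc) -0.23 ± 0.18, each with a limma adjusted p of 0.732.

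JAK kinases and STAT factors had differences mostly below 0: 9 of 10 lay below 0, with a median of -0.29. Stat5a, the factor that drives Cish and Socs2 in other settings, read 0.34, 0.21 and 0.39 in vehicle and -0.07, -0.11 and 0.09 in dexamethasone. All its dexamethasone values were below the vehicle values, and the difference of -0.34 ± 0.17 (SE) did not pass (limma adjusted p = 0.732). Stat5b differed by -0.455 ± 0.24 (SE, limma adjusted p = 0.732). Of 19 cytokine receptor genes, 13 were above 0 and 6 below (median 0.525, beside 0.32 for all genes). Il6ra, the interleukin-6 receptor alpha chain, was the receptor gene with the smallest p. It read -1.38, -1.18 and -1.10 in vehicle and 0.57, 0.23 and 0.80 in dexamethasone, a 3.38-fold higher level that did not pass (difference 1.76 ± 0.23, SE, limma adjusted p = 0.228, and 0.0765 after low-signal probes were left out). Osmr, the oncostatin M receptor, differed by -0.74 ± 0.29 (SE, limma adjusted p = 0.732).

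Cytokine ligands divided evenly, 6 of 12 above 0 and 6 below (median 0.15). Tslp (1.125 ± 0.59) and Il7 (1.75 ± 0.92) had the smallest p among them, each with a limma adjusted p of 0.732, and no probe of Il7 was free of low signal. Other brakes on cytokine signalling had 7 of 12 above 0 (median 0.10), led by the phosphatase gene Ptpn6 (1.17 ± 0.44) and the ubiquitin ligase gene Cblb (0.68 ± 0.32), both at a limma adjusted p of 0.732. Among 15 STAT target genes, 10 were above 0 and 5 below (median 0.56). Bcl2l1, which encodes the survival protein Bcl-xL, read -0.52, -0.57 and -0.50 in vehicle and 0.50, 0.42 and 0.80 in dexamethasone (difference 1.10 ± 0.19, SE, limma adjusted p = 0.365). The interferon-induced gene Ifit1 went the other way, from 0.70, 0.81 and 0.44 to -0.53, -0.30 and -0.67 (difference -1.15 ± 0.21, SE, limma adjusted p = 0.394). In both genes the groups did not overlap, and neither passed. After centring, the list medians of the other SOCS-box genes (-0.295), the ligands (-0.16) and the other brakes (-0.21) lay below 0. So did those of the ligase subunits (-0.40) and of the JAK and STAT genes (-0.60). The centred medians of the cytokine receptors (0.22) and the STAT targets (0.26) lay above 0.

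Of 7 substrates and docking partners of SOCS proteins, 4 were above 0 and 3 below (median 0.07, and -0.24 after centring). The insulin receptor substrate gene Irs1 differed by -0.56 ± 0.205 (SE) and the insulin receptor gene Insr by -0.41 ± 0.37, with a limma adjusted p of 0.732 each. Of 4 binding partners of SPSB proteins, 3 were above 0 and 1 below (median 0.60, and 0.29 after centring). Nos2 read -0.61, -1.53 and 0.80 in vehicle and -0.69, 3.43 and 3.585 in dexamethasone, so dexamethasone 1 lay within the vehicle range (difference 2.555 ± 1.39, SE, limma adjusted p = 0.732). Ddx4 differed by 1.14 ± 0.57 (SE, limma adjusted p = 0.732).

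**Figure D4:**
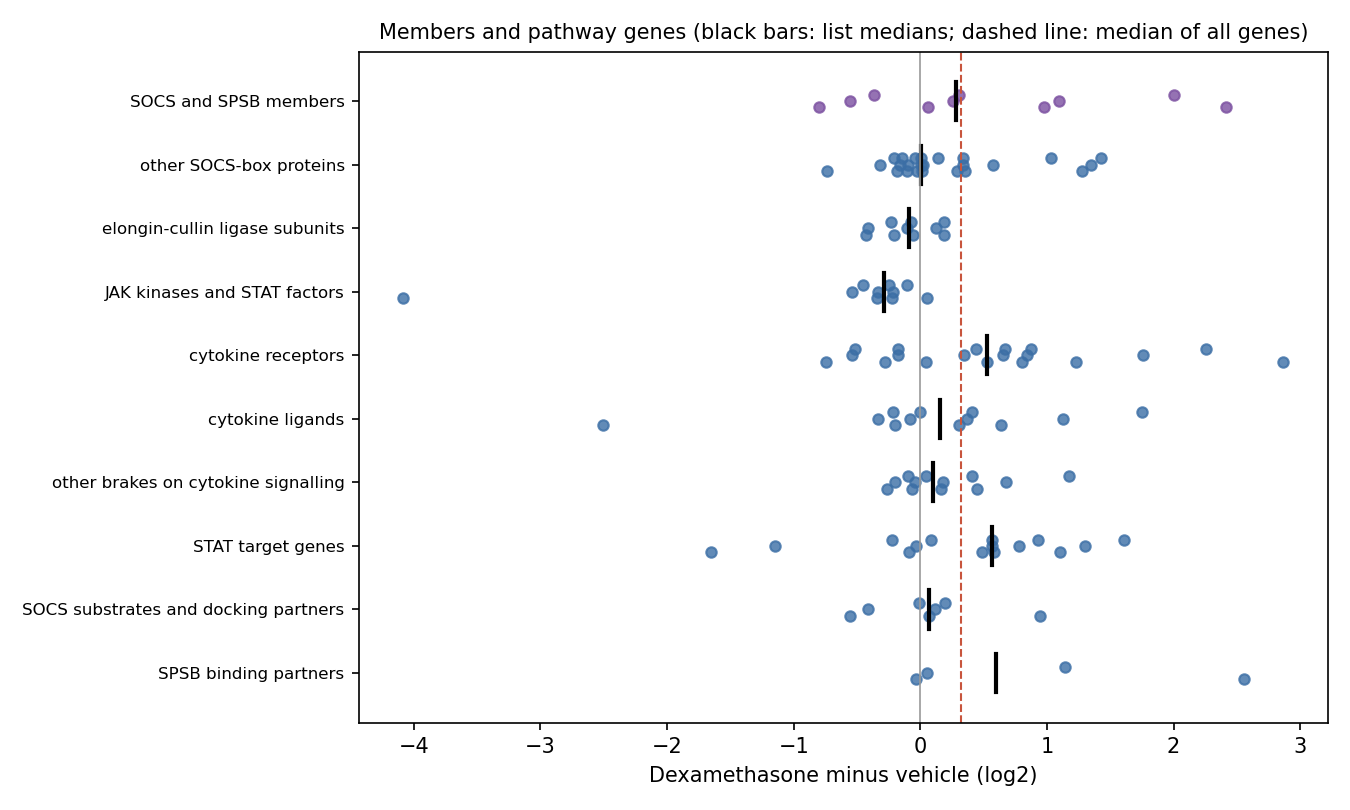
Dexamethasone minus vehicle difference (log2, horizontal axis) of the 10 members, in purple, and of the genes of 9 pathway lists, in blue, 1 point per gene. Black bars are list medians and the dashed line is the median of all genes at 0.32; the JAK and STAT genes have the lowest list median, -0.29, which would be the highest, 0.29, with the ratio taken the other way.

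The 5 genes whose profile lay nearest to that of Spsb1 over the 6 centred arrays, among 16509 other named genes with values on all arrays, were Adm, Gclc, Ism1, Rgs2 and Mt4. Likeness was measured as the root mean square difference of the log2 ratios, which ran from 0.16 for Adm to 0.31 for Mt4. Adm, which encodes the vasodilator peptide adrenomedullin, differed by 2.16 after centring and Rgs2, a regulator of G protein signalling, by 2.40.

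Markers of other cell types were looked at beside these results. Of 11 blood, endothelial and epithelial markers tested, 9 were above 0, with a median of 1.08 and 0 called by limma, and only 4 had a probe free of low signal. The 6 mesenchymal markers had a median of -0.47, with 4 below 0 and 0 called. Without adjustment, 1 of the 17 markers had a limma p under 0.05, beside 1468 of all 27046 genes and unnamed probes. The markers' part in the members' differences was not tested.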

How the data were processed

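RNA of 3 vehicle and 3 dexamethasone cultures was hybridised against a pool on 6 two-colour arrays. The deposited values were read as log2 ratios, from the values themselves. On 4 arrays from 2 to 27 deposited values exceed 100 in size, so those columns are scores that are not log2 ratios throughout. The submitters' processing notes name limma. The steps of background correction and normalization, and a genome build, are not given in the sources used. The number of arrays limits the precision. The labels count myostatin-treated cells among the sources of the pool, which the series' design text does not mention.

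Of 38467 probes, 29456 carried 1 symbol in the supplied platform annotation, 760 several and 8251 none. Entrez identifiers of 28735 were found in RefSeq, which changed 0 symbols. Probes of a gene were averaged. Genes measured on 2 or more arrays per group were fitted with limma 3.58.1 in R 4.3.3 (lmFit and eBayes, two-sided, Benjamini-Hochberg threshold 0.05), a fit that was also tested on simulated data. A fold is 2 raised to the difference, and an overlap is judged on the 3 against 3 values. An exact permutation test of 3 against 3 arrays cannot reach 0.05, so none was run. The low-signal setting left out 15355 probes that on any array lacked a value, equalled (to 3 decimals) the log2 of a ratio of whole numbers up to 10, or exceeded 10 in size.

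Members and lists were chosen with earlier results of these data known. Named were all members and their probes, the 2 smallest p of each list, and the 5 genes nearest to Spsb1. Other genes and contrasts are marked as chosen later. Alternatives were a replicate block, centring, quantile normalization, single or median probes, filters, a block for the array sets and leaving out each array.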

Additional observations from a re-analysis of the deposited data

How the results depend on the processing

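The count of calls over all genes was 0 in the planned fit and in all but 2 alternatives. It was 29 without low-signal probes (26 higher) and 5 when values on all 6 arrays were required. Without any 1 array it ran from 0 to 0. Replicate numbers were not taken as pairs in the planned fit. The correlations of deviations between same-numbered arrays were 0.30, -0.10 and 0.24. The best partner of vehicle 1 and of vehicle 3 had the same number, and that of vehicle 2 was dexamethasone 1. Whether the arrays were paired cannot be told from so few. With the replicate block the count was 0.

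The members' median of 0.28 was -0.026 after centring and -0.071 after quantile normalization, where the median of all genes was 0.018 and -0.034. Without low-signal probes the members' median stayed at 0.28, beside 0.17 for all genes. The members' median ran from 0.089 to 0.415 without 1 array. The 5 members without overlap became 8 of 15 when each probe stood on its own, where 10.3% of all probes were higher and 8.42% lower. Without 1 array they numbered 5 to 9 of 10. The 9 came without dexamethasone replicate 1, where 42.9% of all genes were higher and 12.2% lower. Shares of all genes were not computed for the other arrays left out, and fewer arrays overlap less often, so nothing is read from these counts. Pathway list genes called numbered 0 under every alternative run.

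The differences of Spsb1 (2.105 to 2.49), Socs2 (0.67 to 1.18), Socs1 (0.455 to 1.594) and Spsb4 (0.87 to 2.88) stayed above 0 over 14 alternatives. Those of Socs5 (-1.63 to -0.40), Socs6 (-1.27 to -0.45) and Spsb2 (-0.70 to -0.24) stayed below. The sign turned for Cish in 4, Socs3 in 2 and Spsb3 in 3 of the 14. These do not include the run on single probes, where the Socs1 probe mMR028602 differed by -0.016 and mMC006707 by 2.21. The cause of these shifts was not tested.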
